A study of Homo sapiens with 9 samples.

Results

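HSF1 and 9 chaperone and co-chaperone genes of the heat shock response were followed in the RNA of SKOV3 ovarian cancer cells. The 10 genes were HSF1, HSPA1A, HSPA1B, HSPA8, HSPH1, DNAJB1, HSP90AA1, HSPB1, BAG3 and HSPD1, taken by their symbols from a table of 58735 genes, and each was read in all 9 libraries. RNA was sequenced from WT CDK9 cells (labelled WT), from WT CDK9 cells treated for 24 h with an inhibitor of ALK (Ai) and from cells expressing Tyr19Phe CDK9 (Y19F), with 3 libraries per group. CDK9 is the kinase of the P-TEFb complex, which releases paused RNA polymerase II into elongation. In the Tyr19Phe form a phenylalanine takes the place of the tyrosine that ALK phosphorylates.

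For its stable lines, the study depleted CDK9 from SKOV3 cells with shRNA and put back WT or mutant CDK9, and the ALK inhibitor was given to cells that carried the WT form. All 3 groups therefore express an introduced CDK9, and the counts do not separate it from the endogenous gene. Whether each line was a single clone is not given in the sources used here, nor are the inhibitor and its dose for this experiment. WT and Tyr19Phe CDK9 cells are separate stable lines, so a difference of the mutation and a difference between lines cannot be told apart. The labels do not say whether the 3 libraries of a group came from separate cultures, so p-values measure the spread between these libraries, which may be technical.

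HSF1 is the main transcription factor of the heat shock response. Chaperones of the Hsp70 and Hsp90 classes hold it inactive in unstressed cells, and on proteotoxic stress it forms trimers, binds heat shock elements (inverted repeats of GAA) and releases paused RNA polymerase II, a step that uses P-TEFb. Its targets fold, hold or disaggregate proteins, and cancer cells commonly use them at a raised level without heat. HSPA8 and HSP90AB1 are the constitutive cytosolic Hsp70 and Hsp90, HSPA1A and HSPA1B the stress-inducible Hsp70 pair, and HSP90AA1 the inducible Hsp90.

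The libraries held 18169050 to 20974903 counts in the WT CDK9 and inhibitor groups and 26485891 to 29320184 counts in the Tyr19Phe group. Values below are in CPM (a gene's share of its library's counts after TMM scaling), and the detection floor of 3 counts was 0.102 to 0.165 CPM. The 8 ovarian carcinoma markers summed to 5078 to 5750 CPM in every library, with PAX8, KRT7 and KRT8 high and WT1 at 7 to 52 counts. Single markers differed between groups: mean MSLN was 41.7 CPM in WT CDK9 cells, 41.9 CPM with the inhibitor and 13.1 CPM in Tyr19Phe CDK9 cells, EPCAM 21.2, 20.9 and 11.97 CPM, and ERBB2 1799.7, 2625 and 1470.4 CPM. The 5 leukocyte markers summed to at most 0.517 CPM. The 4 endothelial markers summed to 0.975 to 2.62 CPM in WT CDK9 cells, 1.29 to 1.95 CPM with the inhibitor and 3.285 to 4.34 CPM in Tyr19Phe CDK9 cells, where CDH5 had 14, 35 and 17 counts against 0 to 1 elsewhere, and PECAM1 had 0 to 3 counts in all libraries. Summed fibroblast markers, nearly all COL1A1, were 110.0 to 113 CPM in WT CDK9 cells, 124 to 161 CPM with the inhibitor and 38.6 to 52.0 CPM in Tyr19Phe CDK9 cells, with DCN and LUM at 0 to 4 counts, and the part of these marker shifts in the results was not tested. CDK9 itself was at 47.6 to 49.7 CPM in WT CDK9 cells, 43.8 to 47.3 CPM with the inhibitor and 52.4 to 59.5 CPM in Tyr19Phe CDK9 cells, and ALK had 0 to 5 counts. In bulk RNA, a change in the mix of cells and a change in the RNA per cell cannot be told apart.

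The upstream sequences of the genes are shown because the heat shock element, to which HSF1 binds, can be read in them. RefSeq windows (GRCh38.p14) of 250 bases before a start site were found for 9 of the 10 genes, all but HSF1, and for 8 of them at the start of the GENCODE canonical transcript. In 7 of these 8 an inverted GAA pair was found, written GAANNTTC or TTCNNGAA (each is its own reverse complement, so both strands are covered). The pair occurred in 11.6% of the 34788 upstream windows of all genes, which are not limited to canonical starts. The 9 genes had 13 windows in all. The further windows of DNAJB1, HSP90AA1 and HSPD1, at other starts, held no pair. Each stretch below runs 5′ to 3′ along the gene's strand, with the pairs in capitals, and overlapping pairs join into longer runs. The HSPA8 window held 4 pairs, of which the 2 nearest the start are printed, and its other 2 form a further run that begins 230 bases before the start.
HSPA1A: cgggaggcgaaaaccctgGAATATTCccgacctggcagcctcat
HSPA1B: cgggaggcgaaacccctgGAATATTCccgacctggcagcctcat
HSPA8: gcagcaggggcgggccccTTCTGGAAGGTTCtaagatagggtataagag
DNAJB1: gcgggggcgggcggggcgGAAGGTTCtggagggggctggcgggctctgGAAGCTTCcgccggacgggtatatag
HSP90AA1: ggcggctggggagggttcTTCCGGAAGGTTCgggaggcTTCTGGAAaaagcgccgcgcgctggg
HSPB1: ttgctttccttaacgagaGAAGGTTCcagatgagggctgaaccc
HSPD1: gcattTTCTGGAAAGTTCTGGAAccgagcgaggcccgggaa

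The stretches of the Hsp70 pair are nearly the same and lie at chr6:31815419-31815462 for HSPA1A and chr6:31827615-31827658 for HSPA1B, both on the plus strand, with the GAA pair 106 and 105 bases before the start. The HSPB1 stretch lies at chr7:76302473-76302516 on the plus strand, with its pair 182 bases before the start. These 3 stretches are outside the genes as the deposited table places them. The other 4 are on the minus strand, inside the deposited span of their own gene, which holds longer transcripts that start further away: HSPA8 at chr11:123062161-123062209, DNAJB1 at chr19:14518419-14518492, HSP90AA1 at chr14:102087087-102087150 and HSPD1 at chr2:197500050-197500090. A run of 3 units (GAANNTTCNNGAA or TTCNNGAANNTTC) was present upstream of HSPA8, HSP90AA1 and HSPD1 and in 0.443% of all windows. BAG3, with its window at the canonical start, held no such pair, and the HSPH1 window, whose start lies 484 bases from the canonical start, held none either. These matches describe letters and not binding.

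The 10 genes took between 0.616% and 0.654% of all counts in each library. Scaled for gene length, HSP90AA1 stood highest in WT CDK9 cells, at 682 ± 10.9 CPM per kb (SD, n = 3). HSPB1 followed at 402 ± 8.18, HSPA8 at 238 ± 12.1 and HSPD1 at 128 ± 0.444 CPM per kb. A gap separated these from DNAJB1 at 33.7 ± 3.57 and BAG3 at 31.1 ± 0.780 CPM per kb, whose libraries overlapped. HSF1 at 22.1 ± 1.15 and HSPH1 at 20.9 ± 0.631 CPM per kb overlapped too. Deposited gene lengths exceed those of the canonical transcripts unequally (HSF1 5307 against 2134 bases, BAG3 2747 against 2561). Ranks between genes therefore depend on the length used. The inducible pair was lowest as counted, with HSPA1A at 14.8 ± 1.36 and HSPA1B at 12.2 ± 1.09 CPM per kb, but 72.4% and 72.8% of their transcript windows of 100 bases also occur in another gene, so reads may have been dropped and their rank is uncertain. The order of the 10 means as counted was the same in all 3 groups, and in Tyr19Phe CDK9 cells every gene's libraries lay above those of the next gene.

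**Figure D1:**
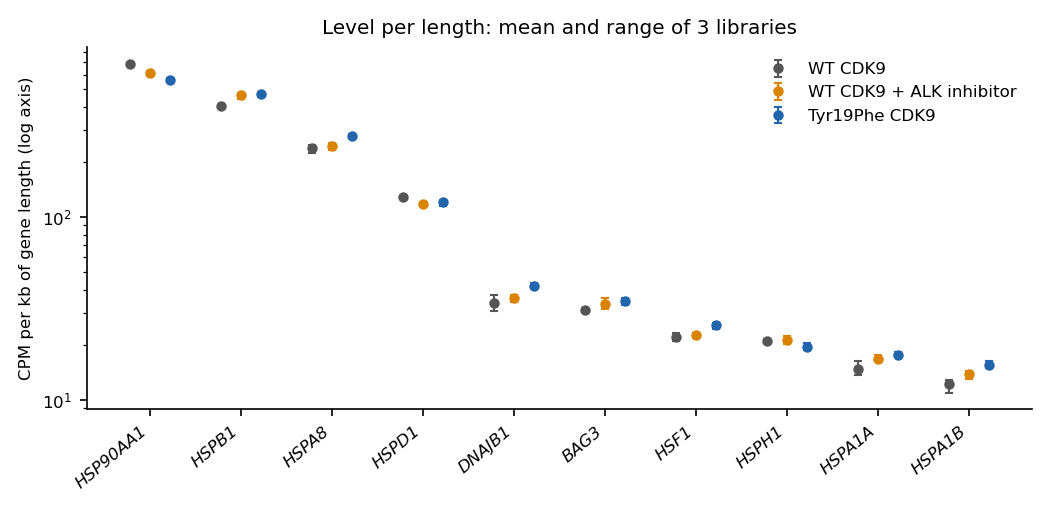
Level of the 10 heat shock genes per length (CPM per kb of deposited gene length, log axis), with genes ordered by their mean in WT CDK9 cells, points for the mean of 3 libraries and bars for their range. HSP90AA1, HSPB1, HSPA8 and HSPD1 form the upper tier. HSPA1A and HSPA1B are lowest as counted in each group, with a rank that is uncertain because most of their sequence is shared.

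Most of the heat shock genes were modestly higher in Tyr19Phe CDK9 cells than in the WT group, and HSP90AA1 was lower. With edgeR's quasi-likelihood test (Benjamini-Hochberg adjusted p under 0.05 over the 16350 genes tested, among them all 10), 6 of the 10 were called higher and 1 lower in Tyr19Phe CDK9 cells, where 7.61% of all tested genes were called higher and 10.4% lower. HSPA1A and HSPA1B are among those called higher, and since they share most of their sequence they are not separate results. With their counts summed into a single feature, 5 were called higher and 1 lower. No library of the Tyr19Phe group overlapped the WT CDK9 libraries for any of the 10, with 7 higher and 3 lower, against 15.4% and 17.2% of all genes. With the ALK inhibitor, 1 of the 10 was called higher and 2 lower, beside 1.82% and 2.73% of all genes. Its libraries did not overlap the WT CDK9 libraries for 2 of the 10 on the higher side and 2 on the lower side, against 9.31% and 10.3% of all genes. In the direct comparison of Tyr19Phe CDK9 with the inhibitor, 3 were called higher and 1 lower, beside 9.57% and 11.1% of all genes, and the libraries were apart for 4 higher and 1 lower, against 16.7% and 17.7%.

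These genes are abundant, and abundant genes were called more often. Among the 6097 genes with a mean at least as high as the lowest of the 10, 12.3% were called higher and 19% lower in Tyr19Phe CDK9 cells, and 3.41% and 5.54% with the inhibitor. The median log2 fold change of the 10 was 0.22 in Tyr19Phe CDK9 cells and 0.06 with the inhibitor, where the medians over all tested genes were 0.0035 and -0.0010. The comparisons with WT CDK9 cells share the same 3 control libraries, so their values stand side by side here and are not counted as separate support. Scaling by library size alone left 1 of the 10 called lower with the inhibitor and turned the count over all genes from 297 higher and 447 lower to 406 higher and 344 lower.

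**Figure D2:**
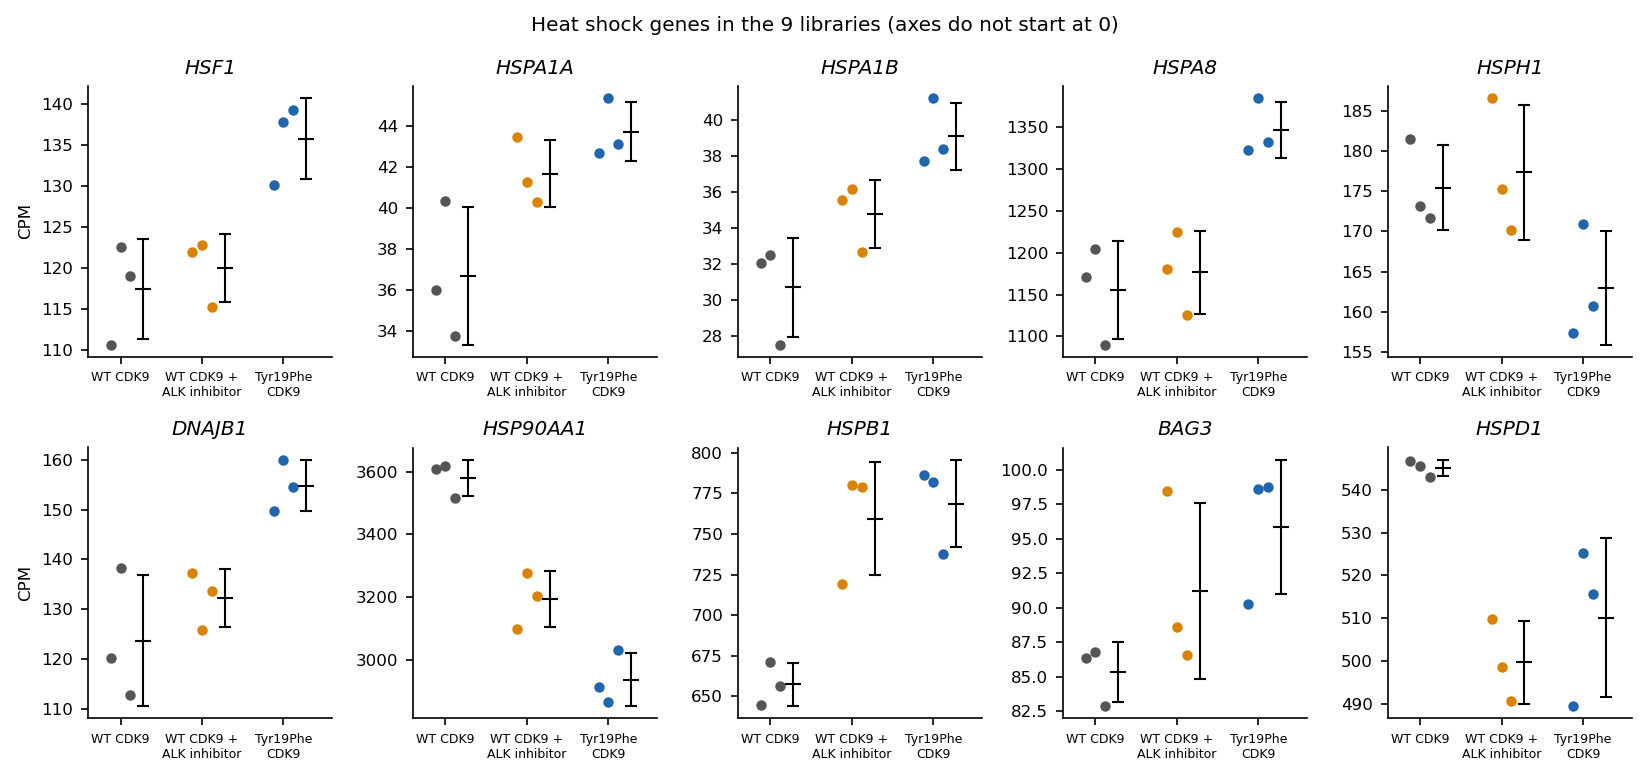
CPM of each of the 10 heat shock genes in the 9 libraries, with a point per library and the mean ± SD of 3 libraries beside them; the axes do not start at 0. Every Tyr19Phe CDK9 library of HSF1, HSPA8, DNAJB1, HSPA1B and HSPB1 lies above the WT CDK9 libraries, and every HSP90AA1 library of that group lies below them.

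HSF1 (ENSG00000185122, chromosome 8 from 144291591 to 144314722, GRCh38) had 111, 123 and 119 CPM in WT CDK9 cells, 122, 123 and 115 CPM with the inhibitor and 130.1, 138 and 139 CPM in Tyr19Phe CDK9 cells. All 3 Tyr19Phe libraries were above every other library, while the WT CDK9 and inhibitor libraries overlapped. HSF1 was called higher in Tyr19Phe CDK9 cells than in the WT group (log2 fold change 0.21 with a standard error, SE, of 0.055, adjusted p = 0.00588 from edgeR) and higher than with the inhibitor (0.18, SE 0.055, adjusted p = 0.0180). The inhibitor itself gave 0.03, with a 95% interval from -0.08 to 0.14 (adjusted p = 0.876). Without WT replicate 1 the call against WT CDK9 cells was lost (adjusted p = 0.0609), and the call against the inhibitor was lost without Ai replicate 3, Y19F replicate 2 or Y19F replicate 3 (adjusted p up to 0.0977).

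The constitutive Hsp70 HSPA8 (ENSG00000109971, chromosome 11 from 123057489 to 123063230) carries out folding and clathrin uncoating in unstressed cells. Its level was 1171, 1205 and 1090.2 CPM in WT CDK9 cells, 1180.0, 1224 and 1126 CPM with the inhibitor and 1322, 1385 and 1333 CPM in Tyr19Phe CDK9 cells. The Tyr19Phe libraries were again above all others. In that group HSPA8 was 16.6% higher than in WT CDK9 cells (log2 fold change 0.22, SE 0.037, adjusted p = 3.39e-05) and 14.5% higher than with the inhibitor (0.19, SE 0.037, adjusted p = 0.000167). Against WT CDK9 cells the inhibitor gave 0.03 (95% interval -0.05 to 0.10).

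HSPA1A (ENSG00000204389, chromosome 6 from 31815464 to 31817946) and HSPA1B (ENSG00000204388, chromosome 6 from 31827735 to 31830255) encode almost the same inducible Hsp70. With most of their sequence shared, the counting may have split or dropped their reads and each gene's value is uncertain. HSPA1A had 36.0, 40.4 and 33.7 CPM in WT CDK9 cells, 43.5, 41.3 and 40.3 CPM with the inhibitor and 42.7, 45.4 and 43.2 CPM in Tyr19Phe CDK9 cells. For HSPA1B the values were 32.1, 32.5 and 27.5 CPM in WT CDK9 cells, 35.6, 36.2 and 32.7 CPM with the inhibitor and 37.7, 41.2 and 38.4 CPM in Tyr19Phe CDK9 cells.

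Both genes were called higher in Tyr19Phe CDK9 cells than in the WT group, HSPA1A by a log2 fold change of 0.25 (SE 0.085, adjusted p = 0.0340) and HSPA1B by 0.35 (SE 0.091, adjusted p = 0.00579). Their counts summed into a single feature gave 0.30 (SE 0.068, adjusted p = 0.00181). With the inhibitor the sum gave 0.18 (SE 0.069, adjusted p = 0.162), and HSPA1B had every inhibitor library above the WT CDK9 libraries while HSPA1A did not. The Tyr19Phe and inhibitor groups were not told apart for the sum (0.11, SE 0.068, adjusted p = 0.257). HSPA1A lost its call without WT replicate 1 or 3 or any of the 3 Tyr19Phe libraries (adjusted p up to 0.179) and with the trend with GC content and length removed (0.20, adjusted p = 0.0856), and HSPA1B lost it without WT replicate 3 (adjusted p = 0.0589).

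DNAJB1 (ENSG00000132002, chromosome 19 from 14514770 to 14529770) is the J-domain protein that brings clients to Hsp70 and stimulates its ATPase. It had 120.1, 138 and 113 CPM in WT CDK9 cells, 137, 126 and 134 CPM with the inhibitor and 149.8, 160.0 and 155 CPM in Tyr19Phe CDK9 cells. WT CDK9 and inhibitor libraries overlapped, and the Tyr19Phe libraries stood above both. The gene was called higher in Tyr19Phe CDK9 cells than in the WT group (log2 fold change 0.32, SE 0.060, adjusted p = 0.000144) and higher than with the inhibitor (0.23, SE 0.059, adjusted p = 0.00545). Its span overlaps 12686 bases of TECR on the opposite strand, a gene with a mean of 2172 counts, and since the strand setting of the counting is not given in the sources used here, reads of the shared stretch cannot be told apart.

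BAG3 (ENSG00000151929, chromosome 10 from 119651370 to 119677819) is a nucleotide exchange factor that links Hsp70 to autophagy. It had 86.3, 86.8 and 82.9 CPM in WT CDK9 cells, 98.5, 88.6 and 86.6 CPM with the inhibitor and 90.2, 98.6 and 98.7 CPM in Tyr19Phe CDK9 cells. The Tyr19Phe libraries lay above the WT CDK9 libraries, and the gene missed the threshold (log2 fold change 0.17, SE 0.062, adjusted p = 0.0604). It passed with upper quartile scaling (adjusted p = 0.0313) or library size scaling (adjusted p = 0.0268), with at least 10 counts in every library (adjusted p = 0.0386) and without Y19F replicate 1 (adjusted p = 0.0335). With the inhibitor the log2 fold change was 0.10 (adjusted p = 0.537).

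HSPH1 (ENSG00000120694, chromosome 13 from 31134974 to 31162388) encodes Hsp110, an exchange factor of Hsp70 that takes part in disaggregation. Its level was 181, 173 and 172 CPM in WT CDK9 cells, 187, 175 and 170.2 CPM with the inhibitor and 157, 171 and 161 CPM in Tyr19Phe CDK9 cells. It differed in sign from DNAJB1 and BAG3, the other Hsp70 partners among the 10, with Tyr19Phe libraries below the WT CDK9 libraries, but was not called (log2 fold change -0.11, 95% interval -0.21 to -0.0055, adjusted p = 0.146). Against the inhibitor its log2 fold change was -0.12 (adjusted p = 0.0785), called only without Y19F replicate 2 (adjusted p = 0.0469) among the alternatives run.

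HSP90AA1 (ENSG00000080824, chromosome 14 from 102080738 to 102139699) encodes the inducible Hsp90 alpha, which matures kinases and steroid receptors. It had 3607, 3619 and 3515 CPM in WT CDK9 cells, 3099, 3277 and 3203 CPM with the inhibitor and 2914, 2867 and 3029.9 CPM in Tyr19Phe CDK9 cells. The groups were fully separate, with WT CDK9 libraries highest and Tyr19Phe libraries lowest. HSP90AA1 was called lower with the inhibitor (log2 fold change -0.17, SE 0.028, adjusted p = 0.000186), lower in Tyr19Phe CDK9 cells (-0.29, SE 0.028, adjusted p = 4.05e-09) and lower in Tyr19Phe CDK9 cells than with the inhibitor (-0.12, SE 0.028, adjusted p = 0.00206). All 3 calls were made in each of the 20 alternatives.

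HSP90AB1, the constitutive counterpart, had 2026, 2031 and 2001 CPM in WT CDK9 cells, 1969, 1919.7 and 1896 CPM with the inhibitor and 2063, 2063 and 2139 CPM in Tyr19Phe CDK9 cells, and was called in neither comparison with WT CDK9 cells (log2 fold changes -0.07 and 0.05, adjusted p = 0.250 and 0.282). It was called higher in Tyr19Phe CDK9 cells than with the inhibitor (0.12, adjusted p = 0.00379). Per deposited gene length, the ratio of HSP90AA1 to HSP90AB1 was 1.01, 1.01 and 0.997 in WT CDK9 cells, 0.894, 0.969 and 0.959 with the inhibitor and 0.802, 0.789 and 0.804 in Tyr19Phe CDK9 cells. The size of the ratio depends on the lengths used, and its differences between groups do not. The ratio was lowest in all 3 Tyr19Phe libraries, and the groups did not overlap. Each pair of groups gave a two-sided exact permutation p of 0.1, the smallest that 3 libraries against 3 allow.

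HSPB1 (ENSG00000106211, chromosome 7 from 76302544 to 76304295) encodes Hsp27, a small heat shock protein that holds unfolded clients without ATP. It had 645, 671 and 656 CPM in WT CDK9 cells, 719, 780.1 and 779 CPM with the inhibitor and 786, 782 and 738 CPM in Tyr19Phe CDK9 cells. All 6 libraries of the inhibitor and Tyr19Phe groups were above the WT CDK9 libraries, and the 2 groups overlapped each other. HSPB1 was higher than in WT CDK9 cells by 15.5% with the inhibitor (log2 fold change 0.21, SE 0.038, adjusted p = 0.000400) and by 16.9% in Tyr19Phe CDK9 cells (0.23, SE 0.038, adjusted p = 3.71e-05). Between these groups the log2 difference was 0.02, with a 95% interval from -0.06 to 0.09 (adjusted p = 0.805).

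HSPD1 (ENSG00000144381, chromosome 2 from 197486581 to 197516737) encodes the mitochondrial chaperonin Hsp60. It had 547, 546 and 543 CPM in WT CDK9 cells, 509.8, 499 and 491 CPM with the inhibitor and 489.5, 525 and 516 CPM in Tyr19Phe CDK9 cells. Both other groups lay below the WT CDK9 libraries and overlapped each other. The gene was called lower with the inhibitor (log2 fold change -0.13, SE 0.037, adjusted p = 0.0467) but was close to the threshold, and was not called in Tyr19Phe CDK9 cells (-0.10, SE 0.037, adjusted p = 0.0726). The inhibitor call was kept in 8 of 20 alternatives. It was lost at an adjusted p under 0.01, under the other scalings (adjusted p from 0.0528 to 0.144), without a filter (adjusted p = 0.0837) and when any WT CDK9 or inhibitor library or Y19F replicate 3 was left out (adjusted p up to 0.183). DESeq2 called HSPD1 lower in Tyr19Phe CDK9 cells too (adjusted p = 0.0237). HSPD1 overlaps HSPE1 and MOB4 on the opposite strand, with the same limit on their shared reads.

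**Figure D3:**
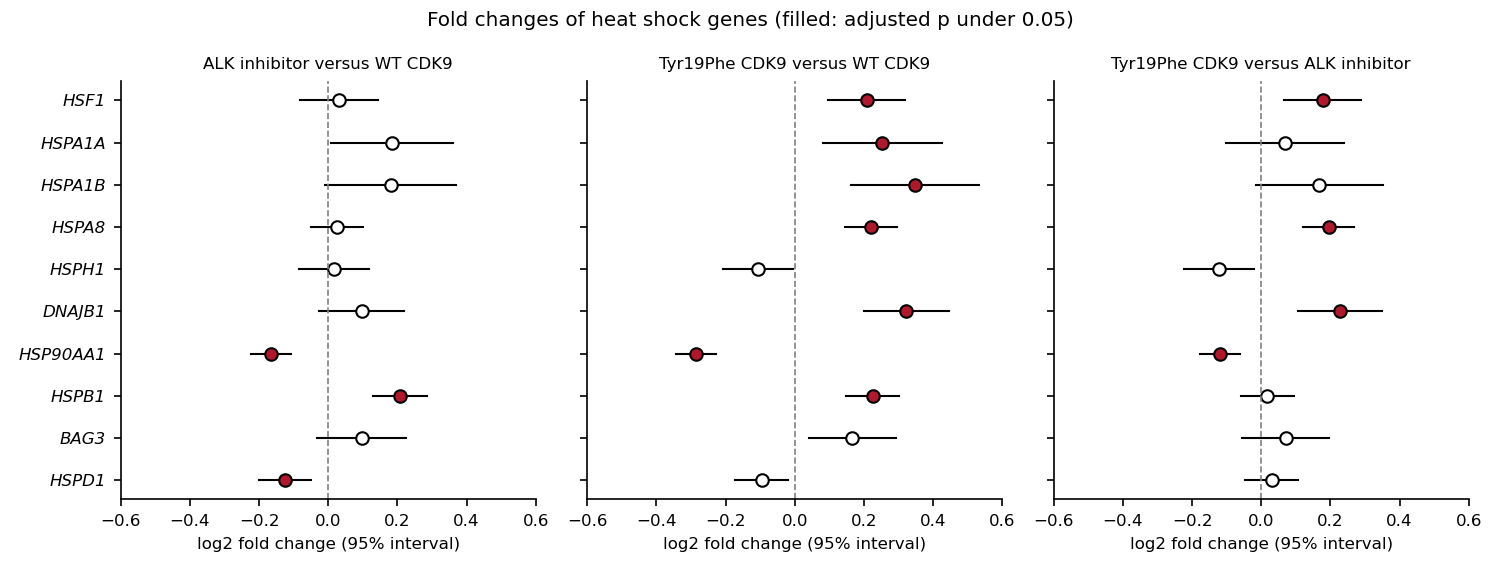
Log2 fold change of each of the 10 heat shock genes in the 3 comparisons, with its 95% interval from edgeR's fit and filled points for an adjusted p under 0.05. In Tyr19Phe CDK9 against WT CDK9 cells 6 genes are called higher and HSP90AA1 lower, and with the inhibitor HSPB1 is called higher and HSP90AA1 and HSPD1 lower.

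Within a group, some libraries stood above or below the others for most of the 10 genes. In WT CDK9 cells, 9 of the 10 were above their group mean in replicate 2 and 1 of the 10 in replicate 3, and in Tyr19Phe CDK9 cells 1 of the 10 was above it in replicate 1 and 9 in replicate 2. The median deviation from the group mean ranged from -0.05 to 0.05 on the log2 scale over the 9 libraries. The same counts over all tested genes were not made, so these are not read as a trait of the 10. After the group means were removed, HSPA8 and HSPA1B still had a Pearson correlation of 0.965, and HSPA1A and DNAJB1 of 0.921. These values are over 9 libraries, 3 for each line or treatment, with depth differing between groups. They are the largest among all pairs of the 10 genes, with 6 residual degrees of freedom. BAG3 correlated with HSPD1 (0.853) and HSPH1 (0.811). For HSP90AA1 the values ran from -0.45 with HSPH1 to 0.259 with HSPA8. HSPB1 went the other way with some genes, at -0.74 with BAG3, -0.51 with HSPH1 and -0.49 with HSPD1. With the remaining genes HSPB1 was between -0.11 (HSF1) and 0.12 (HSP90AA1).

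In Tyr19Phe CDK9 cells, some of the heat shock genes had the sign of their chromosomal neighbours or of genes with like GC content, and others did not. The 72 tested genes within 5 Mb of HSP90AA1 had a median of -0.22 (log2) in Tyr19Phe CDK9 cells against -0.29 for HSP90AA1, while with the inhibitor these neighbours were at -0.0080 and HSP90AA1 at -0.17. Over chromosome 14 the median was -0.13 in Tyr19Phe CDK9 cells, and 22.3% of its 537 tested genes were called lower. Chromosomes 4 and 21 had medians of -0.22 and -0.13 there, with 34.4% and 24.9% of their genes called lower. On chromosome 22 the median was 0.21, with 1.5% called lower. Neighbours of the HSPA1A and HSPA1B pair had a median of 0.11 (200 genes), those of HSPA8 0.07 (86 genes) and those of DNAJB1 0.07 (256 genes), each below its own gene's value. HSPB1 went against its neighbours, whose median was -0.08 (72 genes), and the neighbours of HSF1 were at 0.02 (93 genes). Those of BAG3 were at -0.03 (48 genes) and those of HSPD1 at 0.0063 (47 genes), each against the sign of its gene. For HSPH1 the neighbours were at -0.05 (32 genes), with the sign of the gene. The part of the neighbourhood in these differences was not tested.

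**Figure D4:**
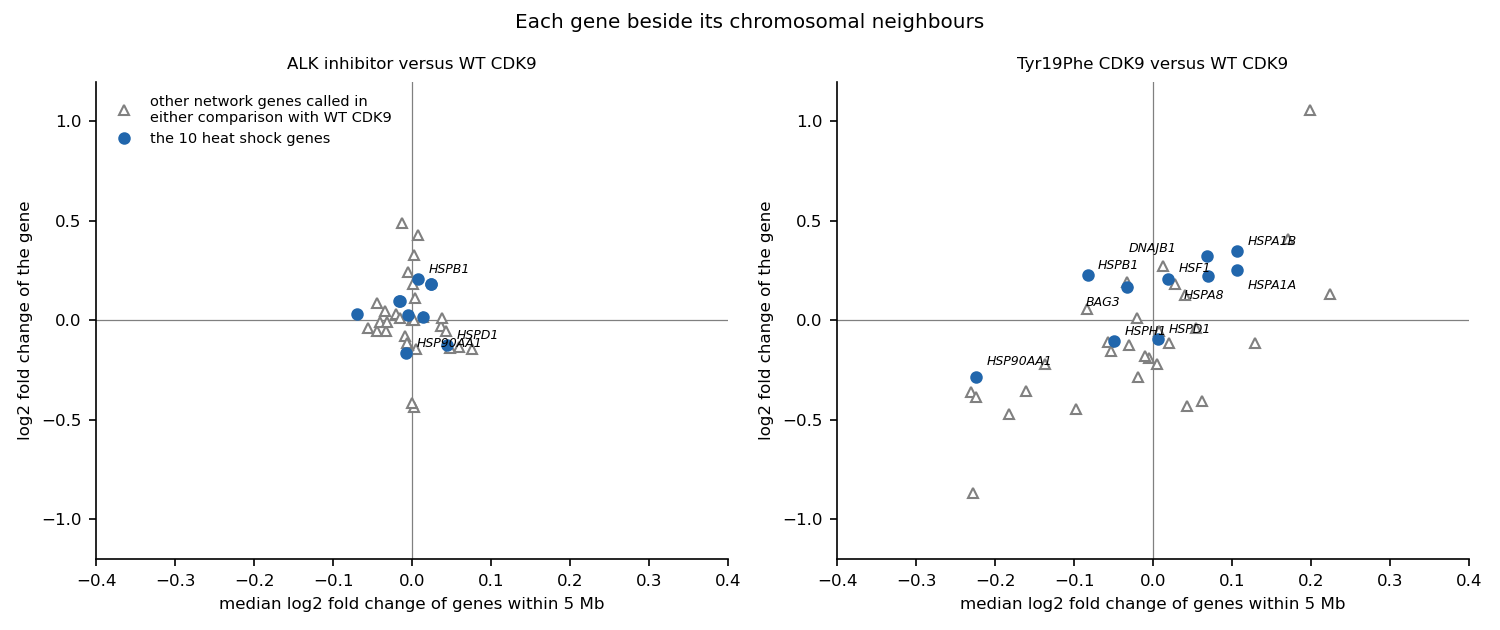
Log2 fold change of each heat shock gene (filled circles) and of the other network genes called against WT CDK9 cells (open triangles) against the median log2 fold change of the tested genes within 5 Mb, with HSPB8, at 2.59 in the Tyr19Phe panel, above the axis. HSP90AA1 lies near its neighbours' median of -0.22 in the Tyr19Phe panel and away from their -0.0080 with the inhibitor, and names in the inhibitor panel mark the called genes only.

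The exons of HSPB1 and HSF1 were the richest in GC among the 10, at 65.3% and 63.9%, and those of HSPH1 the poorest, at 39.6%. In Tyr19Phe CDK9 cells, genes within 2.5 points of the GC content of HSPB1 had a median of 0.07 (log2), those near HSF1 0.06 and those near HSPH1 -0.05. HSPA8 had 45.3% GC and HSP90AA1 41.6%, where the medians were -0.02 and -0.04. With the dependence of each library on GC content and length removed, an alternative chosen after the data had been seen, 5 of the 10 were called higher and 1 lower, and HSPA1A was the call that was lost.

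In the wider chaperone network, as among all tested genes, more genes were called lower than higher against WT CDK9 cells, a balance that moved with the scaling. Of 132 further genes in 9 lists, 131 were matched and 115 were tested. In Tyr19Phe CDK9 cells 8 of the 115 were called higher and 18 lower, beside 7.61% and 10.4% of all tested genes (12.3% and 19% of the abundant ones), and their median log2 fold change was -0.04. With the inhibitor 2 were called higher and 5 lower, beside 1.82% and 2.73% of all genes, with a median of -0.02. In the direct comparison 16 were called higher and 16 lower, beside 9.57% and 11.1%. Upper quartile scaling and library size scaling both changed the Tyr19Phe count to 9 higher and 9 lower, and library size alone changed the inhibitor count to 3 higher and 1 lower.

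Among the other heat shock factors and the HSF1 binding protein HSBP1, 3 of 8 genes were tested. In Tyr19Phe CDK9 cells 1 was called lower and 0 higher, beside 10.4% and 7.61% of all genes. With the inhibitor 0 were called, beside 2.73% lower and 1.82% higher of all genes. There 0 were called by DESeq2 and 0 had an unadjusted p under 0.05 from edgeR. HSBP1, a small coiled-coil protein that binds HSF1 trimers, was called lower in Tyr19Phe CDK9 cells (log2 fold change -0.22, adjusted p = 0.00807, lost without WT replicate 2, without Y19F replicate 1 or with the GC and length trend removed) and was at 0.03 with the inhibitor (adjusted p = 0.886). HSF2, which forms mixed trimers with HSF1, was at 41.9 ± 3.93 CPM in the WT group (SD, n = 3) and was not called in Tyr19Phe CDK9 cells (-0.08, adjusted p = 0.614). HSF4 was low, at 7.49 CPM in WT CDK9 cells, and not called either (0.33, adjusted p = 0.232).

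Other Hsp70 and Hsp110 proteins were called lower or not at all in Tyr19Phe CDK9 cells. There 5 of 11 tested genes were lower and 0 higher, beside 10.4% and 7.61% of all genes. DESeq2 also called 0 higher, and 1 was higher before adjustment at p under 0.05 from edgeR. With the inhibitor 2 were called lower and 0 higher, beside 2.73% and 1.82% of all genes, and 0 were higher by both other counts. HSPA4L, an Hsp110 relative, had 29.3, 27.9 and 23.6 CPM in WT CDK9 cells, 26.1, 27.7 and 24.96 CPM with the inhibitor and 15.5, 14.4 and 14.4 CPM in Tyr19Phe CDK9 cells. Its Tyr19Phe libraries were below all others (log2 fold change -0.87, adjusted p = 4.60e-07), and its 20 neighbours within 5 Mb had a median of -0.23. HYOU1, the Hsp110 of the endoplasmic reticulum, was called lower as well (-0.40, adjusted p = 2.62e-08), as was HSPA5, the Hsp70 of the same compartment (-0.11, adjusted p = 0.0370, kept in 11 of 20 alternatives). HSPA2 and HSPA4 were also called lower, near the threshold (adjusted p = 0.0461 and 0.049). Neighbours within 5 Mb had medians of -0.23 for HSPA2 on chromosome 14 and -0.03 for HSPA4. Those of HYOU1 and HSPA5, at 0.06 and 0.13, went the other way from their genes. The part of the neighbours was not tested. HSPA2 was called lower with the inhibitor too (-0.44, adjusted p = 0.0472). HSPA9, the mitochondrial Hsp70, was called lower with the inhibitor instead (-0.14, adjusted p = 0.0217) and not in Tyr19Phe CDK9 cells (-0.05, adjusted p = 0.405). The HSPA5 call was lost without any WT CDK9 library or without Y19F replicate 2 or 3 (adjusted p up to 0.192), and the HSPA9 call without WT replicate 2 or 3 or any inhibitor library (adjusted p up to 0.124). HSPA6, an Hsp70 that is made under strong heat shock, had 0 to 15 counts per library and was not tested.

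Of 43 tested J-domain proteins other than DNAJB1, 1 was called higher and 6 lower in Tyr19Phe CDK9 cells, beside 7.61% and 10.4% of all genes. With the inhibitor 0 were called in either direction, beside 1.82% higher and 2.73% lower of all genes. There 3 were higher and 3 lower at an unadjusted p under 0.05 from edgeR, and DESeq2 called 0. DNAJC9, which also chaperones histones, had 58.7, 62.1 and 55.0 CPM in WT CDK9 cells, 57.6, 62.3 and 56.4 CPM with the inhibitor and 74.0, 80.1 and 79.0 CPM in Tyr19Phe CDK9 cells. The Tyr19Phe libraries stood above all others (log2 fold change 0.41, adjusted p = 5.49e-05). DNAJC3, an inhibitor of the kinase PERK, was called lower (-0.29, adjusted p = 0.00285), as were DNAJB14 (-0.36, adjusted p = 0.000255) and DNAJC21 (-0.19, adjusted p = 0.0281). Neighbours within 5 Mb had medians of 0.17 for DNAJC9, -0.16 for DNAJB14, -0.02 for DNAJC3 and -0.0046 for DNAJC21, and their part was not tested. The DNAJC21 call was kept in 12 of 20 alternatives and lost without WT replicate 1 or 3 or Y19F replicate 2 or 3 (adjusted p up to 0.161).

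**Figure D5:**
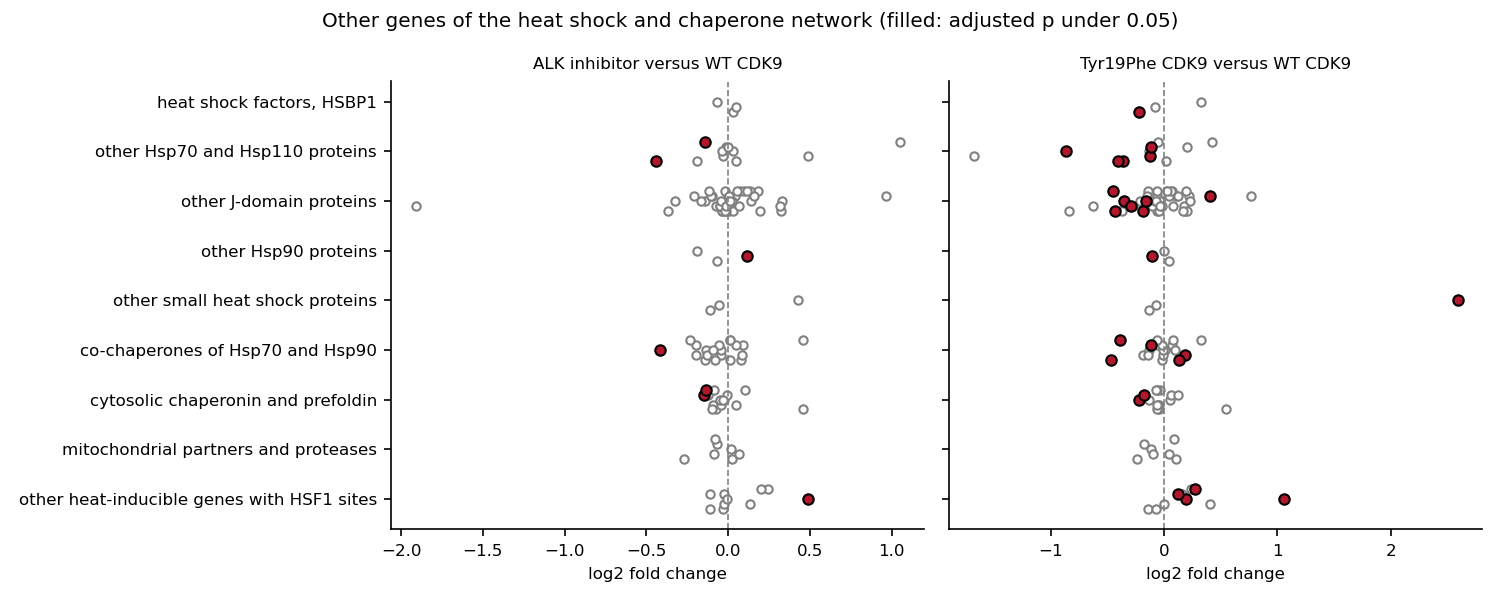
Log2 fold changes of the 115 tested genes of the wider network by list, with filled points for an adjusted p under 0.05. In the Tyr19Phe panel 18 filled points lie below 0 and 8 above it, and HSPB8 is the point at 2.59.

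HSPB8, a small heat shock protein that works with BAG3 in selective autophagy, was near the floor in WT CDK9 cells. It had 9, 1 and 8 counts in WT CDK9 cells, 7, 3 and 15 counts with the inhibitor and 44, 44 and 72 counts in Tyr19Phe CDK9 cells, or 0.462, 0.0528 and 0.428 CPM, 0.332, 0.165 and 0.775 CPM, and 1.49, 1.57 and 2.72 CPM. The Tyr19Phe libraries were above all others (log2 fold change 2.59, SE 0.68, adjusted p = 0.00621), a call lost without Y19F replicate 3 (adjusted p = 0.0582). Of the other small heat shock proteins, 2 were tested, and CRYAB was at -0.13 (adjusted p = 0.480).

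Of the 20 tested co-chaperones of Hsp70 and Hsp90, 2 were called higher and 3 lower in Tyr19Phe CDK9 cells, beside 7.61% and 10.4% of all genes. With the inhibitor 0 were called higher and 1 lower, beside 1.82% and 2.73% of all genes. There 1 was higher and 5 lower at an unadjusted p under 0.05 from edgeR, and DESeq2 called 0 higher and 1 lower. AHSA1, the activator of the Hsp90 ATPase, had 79.3, 77.9 and 67.6 CPM in WT CDK9 cells, 71.2, 67.4 and 65.2 CPM with the inhibitor and 50.8, 55.7 and 55.9 CPM in Tyr19Phe CDK9 cells (log2 fold change -0.47, adjusted p = 1.11e-05). BAG5, an exchange factor of Hsp70, was lower too (-0.39, adjusted p = 4.07e-06). Both genes lie on chromosome 14, and the medians of their neighbours within 5 Mb were -0.18 and -0.22. CDC37, the co-chaperone that delivers kinases to Hsp90, was called higher (0.18, adjusted p = 0.0106), although its libraries overlapped those of WT CDK9 cells. The call was lost without WT replicate 1, WT replicate 3 or Y19F replicate 2 (adjusted p up to 0.0880). The median of the CDC37 neighbours was 0.03.

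CHORDC1, an Hsp90 partner also known as morgana, was the network gene with the smallest adjusted p with the inhibitor. It had 152, 131 and 139 CPM in WT CDK9 cells, 102, 105 and 108 CPM with the inhibitor and 137, 131 and 158 CPM in Tyr19Phe CDK9 cells. The inhibitor libraries were below all others. The inhibitor gave a log2 fold change of -0.42 (SE 0.063, adjusted p = 2.74e-05), 0.01 in Tyr19Phe CDK9 cells (adjusted p = 0.925) and 0.43 between Tyr19Phe CDK9 and the inhibitor (adjusted p = 3.75e-06), so the 2 conditions differed for this gene.

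In the cytosolic chaperonin, which folds actin and tubulin, 2 of 15 tested chaperonin and prefoldin genes were called lower in each comparison with WT CDK9 cells, beside 2.73% of all genes with the inhibitor and 10.4% in Tyr19Phe CDK9 cells. They were CCT5 (log2 fold change -0.15, adjusted p = 0.0252) and CCT6A (-0.13, adjusted p = 0.0498) with the inhibitor, calls kept in 13 and 5 of 20 alternatives. Without WT replicate 1, WT replicate 2 or any inhibitor library the CCT5 call was lost (adjusted p up to 0.163), and the CCT6A call was lost whichever of the 9 libraries was left out (adjusted p up to 0.247). In Tyr19Phe CDK9 cells they were CCT8 (-0.22, adjusted p = 0.000104) and TCP1 (-0.18, adjusted p = 0.00118). Neighbours within 5 Mb had medians of -0.14 for CCT8 and -0.01 for TCP1 there, and their part was not tested. Of the 7 mitochondrial partners and proteases, 0 were called by edgeR in any comparison and 0 by DESeq2. Of all genes, edgeR called 1.82% higher and 2.73% lower with the inhibitor and 7.61% and 10.4% in Tyr19Phe CDK9 cells. In the direct comparison it called 9.57% and 11.1%. At an unadjusted p under 0.05 from edgeR, 1 of the 7 was lower with the inhibitor and 3 were lower in Tyr19Phe CDK9 cells. In the direct comparison 1 was lower. HSPE1, the partner of HSPD1, was among the 7 (0.03 with the inhibitor, adjusted p = 0.953, and 0.10 in Tyr19Phe CDK9 cells, adjusted p = 0.567). HSP90B1, the Hsp90 of the endoplasmic reticulum, was higher with the inhibitor (0.11, adjusted p = 0.0486) and lower in Tyr19Phe CDK9 cells (-0.11, adjusted p = 0.0253), each kept in 12 of 20 alternatives. The inhibitor call was lost without WT replicate 1 or 2 or any inhibitor library (adjusted p up to 0.192), and the Tyr19Phe call without WT replicate 1 or 3 or Y19F replicate 2 or 3 (adjusted p up to 0.183).

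The 10 other heat-inducible genes with HSF1 sites included 4 called higher and 0 lower in Tyr19Phe CDK9 cells, beside 7.61% and 10.4% of all genes (5 and 0 at an unadjusted p under 0.05 from edgeR, 4 and 0 with DESeq2). With the inhibitor 1 was called higher and 0 lower, beside 1.82% and 2.73% of all genes. There 2 were higher and 1 lower at an unadjusted p under 0.05 from edgeR, and DESeq2 called 1 higher and 1 lower. The median log2 fold change of the list was 0.18 in Tyr19Phe CDK9 cells and -0.02 with the inhibitor. HMOX1, the haem-degrading enzyme that oxidative stress and heat induce, had 13.5, 10.8 and 12.3 CPM in WT CDK9 cells, 17.7, 17.9 and 15.8 CPM with the inhibitor and 24.7, 26.0 and 25.6 CPM in Tyr19Phe CDK9 cells. The 3 groups did not overlap. HMOX1 was higher than in WT CDK9 cells by a log2 fold change of 0.49 with the inhibitor (SE 0.12, adjusted p = 0.0144). In Tyr19Phe CDK9 cells it was higher by 1.06 (SE 0.12, adjusted p = 5.49e-08), and higher than with the inhibitor (0.57, adjusted p = 0.000468). The inhibitor call was lost at 0.01 and without WT replicate 2, Ai replicate 1 or Ai replicate 2 (adjusted p up to 0.0992), while both Tyr19Phe calls were made in all 20 alternatives. The median of its 110 neighbours within 5 Mb was 0.20 in Tyr19Phe CDK9 cells. The ubiquitin gene UBB (0.19, adjusted p = 0.0253) and the dioxygenase JMJD6 (0.27, adjusted p = 0.0389) were also called higher there, in 14 and 12 of 20 alternatives. The UBB call was lost without WT replicate 1 or 3 or Y19F replicate 2 or 3 (adjusted p up to 0.215). The JMJD6 call was lost without any WT CDK9 library or Y19F replicate 1 or 2 (adjusted p up to 0.158). Neighbours within 5 Mb had medians of -0.03 for UBB and 0.01 for JMJD6 in Tyr19Phe CDK9 cells. The part of the neighbours was not tested.

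Genes whose log2 CPM was most like that of a heat shock gene over the 9 libraries came from 9766 candidates with a mean of at least 10 CPM. HSP90AA1 was most like SLC4A11 (Pearson r 0.991), DNAJB1 most like DPP9 (0.988), HSPA8 most like AP5Z1 (0.977) and HSF1 most like AUP1 (0.974). HSPA1B was most like ENDOG (0.973), HSPB1 most like HDGFL2 (0.965), HSPD1 most like ACBD6 (0.949) and HSPA1A most like RTL8B (0.941). DNAJC9 was the next gene for HSPA8 (0.974). The 9 libraries form 3 groups, so any gene with the same differences between groups correlates highly.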

How the data were processed

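RNA from 9 SKOV3 libraries was analysed, 3 in each of the groups WT, Ai and Y19F, as the labels assign them. The authors mapped reads to hg38 and deposited whole-number read counts per gene, without normalization, beside gene positions and lengths. The submitters' processing notes name CASAVA, HISAT2 2.0.5 and featureCounts 1.5.0-p3, while the annotation release and strand setting are not given in the sources used here. Of 58735 gene identifiers, 58207 were found in GENCODE release 44, of which 99.93% lay at the same place.

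The tests used edgeR 4.0.16 (with limma 3.58.1) under R 4.3.3. Genes passing filterByExpr (minimum count 10, minimum total 15) were kept and scaled by TMM, and edgeR's quasi-likelihood test compared the group means in a joint fit of the 9 libraries, leaving 6 residual degrees of freedom. P-values were adjusted by Benjamini-Hochberg over all 16350 tested genes, and an adjusted p under 0.05 was a call. Percentages of genes called are over these genes. Levels per length use the deposited gene length. Sequences and GC content came from RefSeq windows and GENCODE exons read in Python 3.11.15 with pandas 2.3.3, and figures were drawn with matplotlib 3.10.9. Code was tested on simulated data, with changes given to genes drawn from all those kept. At a log2 change of 0.2, 6 of 50 changed genes were recovered in each comparison with WT. At 0.35, 16 of 50 were recovered with the inhibitor and 15 of 50 in Tyr19Phe. Over all sizes 84 and 81 of 200 were recovered, beside 8 and 7 false calls. A gene that was not called may therefore still differ. Libraries of the same group differed by more than sampling noise (chi-square per gene from 4.28 to 8.82), so none was counted as a repeat. Equal replicate numbers did not mark libraries that deviate together (correlations from -0.012 to 0.026), and no block was used. Floors and counting limits cover counting error only.

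All 10 genes were named. From each list of the wider network at most 4 genes were named in the results by rule, those called in either comparison with WT CDK9 cells with the smallest adjusted p, and other genes were named after their values were seen. The 10 genes and the lists were chosen with earlier results of these data known. The alternatives were scaling by DESeq2 size factors, the upper quartile or library size alone, DESeq2 1.42.0, no filter beyond 1 count, at least 10 counts in every library, a replicate block, only the compared groups, HSPA1A and HSPA1B summed, an adjusted p under 0.01 and each library left out in turn. Removal of a trend with GC content and length was chosen after seeing the data.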

Additional observations from a re-analysis of the deposited data

How the results depend on the processing

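Under the alternatives, 563 of 600 log2 fold changes of the 10 genes kept their direction and their side of the threshold, 25 lost the call, 6 gained it and 6 changed sign, none of them a called value. The changes of sign were HSF1 with the inhibitor without WT replicate 1 (range with 1 library left out -0.0070 to 0.066), HSPA8 with the inhibitor without WT replicate 3 (-0.011 to 0.061), HSPH1 with the inhibitor without Ai replicate 1 (-0.020 to 0.044), and HSPB1 between Tyr19Phe CDK9 and the inhibitor without Ai replicate 1 or Y19F replicate 1 (-0.020 to 0.050) and with the GC and length trend removed (-0.037). Calls for HSP90AA1, for HSPB1 against WT CDK9 cells and for HSPA8 and DNAJB1 in both Tyr19Phe comparisons were made in all 20 alternatives. The replicate block left the numbers of the 10 genes called at 6 higher and 1 lower in Tyr19Phe CDK9 cells, 1 and 2 with the inhibitor and 3 and 1 between them, and changed the network counts by at most 2 (16 lower in Tyr19Phe CDK9 cells). Scaling alternatives shifted the median of all genes by at most 0.026 on the log2 scale.

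With the inhibitor, DESeq2 size factors, upper quartile scaling, library size alone, no filter and an adjusted p under 0.01 each left 1 of the 10 called lower. Network genes called lower numbered 3 with upper quartile scaling, 1 with library size alone, 3 with only the compared groups and 1 at 0.01, and those called higher 1 without a filter, 1 with at least 10 counts and 0 at 0.01. In Tyr19Phe CDK9 cells, DESeq2 called 2 of the 10 lower. Network genes called lower were 9 with upper quartile scaling, 9 with library size alone, 11 without a filter and 9 at 0.01, where 3 were called higher. At 0.01 the direct comparison had 7 network genes higher and 10 lower. Over all genes the calls at 0.01 were 167 higher and 260 lower with the inhibitor, 715 higher in Tyr19Phe CDK9 cells and 935 higher and 1153 lower between them. The causes of the changes with scaling were not tested.

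With 1 library left out, the 10 genes had 1 called higher and 1 to 2 lower with the inhibitor, 4 to 6 higher and 1 lower in Tyr19Phe CDK9 cells (4 without WT replicate 1 or WT replicate 3), and 2 to 3 higher and 1 to 2 lower between them. Network counts were 0 to 2 higher and 1 to 4 lower with the inhibitor, 3 to 9 higher (3 without WT replicate 1) and 10 to 18 lower in Tyr19Phe CDK9 cells, and 9 to 16 higher and 11 to 16 lower between them. Over all genes they were 198 to 307 higher and 293 to 434 lower, 887 to 1355 higher and 1293 to 1683 lower, and 1187 to 1607 higher and 1421 to 1819 lower.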
